A study of Mus musculus with 3 samples.

Results

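The genes described here are the myeloid colony-stimulating factors and their receptors. They are 8 of the 32285 genes counted. The 4 ligands are Csf1, Il34, Csf2 and Csf3, and the 4 receptor chains are Csf1r, Csf2ra, Csf2rb and Csf3r. They were taken by gene name, with earlier results of these data known. The question was which stromal cells of the arthritic paw carry the ligands, how their levels differ between days, and which myeloid cells carry the receptors.

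Colony-stimulating factors are secreted proteins that keep myeloid cells alive and make them divide and mature. CSF-1 and IL-34 are separate proteins that bind the same receptor tyrosine kinase, CSF1R, on which most tissue macrophages, and osteoclasts, depend. GM-CSF, the product of Csf2, binds a receptor made of an own alpha chain, Csf2ra, and a beta chain, Csf2rb, which the IL-3 and IL-5 receptors use too. G-CSF, the product of Csf3, drives the production of neutrophils through its receptor Csf3r.

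The cells came from mouse hind paws freed of skin, muscle and tendon and digested with collagenase IV. The stromal library of day 5 held CD45- cells from mice given 200 µl of K/BxN serum into the peritoneum, a transfer of arthritic serum that gives a transient joint inflammation. The stromal library of day 0 held CD45- cells at steady state. The myeloid library of day 9 held cells sorted as CD45+CD11b+Ly6G- at day 9 after the same serum. Strain, age and the number of mice behind a library are not in the labels. Each group was 1 library, so no difference between days has a replicate check. All intervals below are 95% intervals, exact Poisson for levels and exact conditional binomial for ratios and shares, and they and the floors cover counting error only.

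The files held 11900, 7740 and 7795 cell barcodes for stromal day 5, stromal day 0 and myeloid day 9. After filters, 10108, 6912 and 5574 cells remained, with 104287774, 70057371 and 53993676 UMIs (molecules told apart by a random tag). Their median UMI counts were 9112.5, 9674 and 6394.5 per cell. Between 9 and 24 kept cells had a barcode that another library also held. Levels are CPM, the UMIs of a gene per 1000000 UMIs of the summed cells of a class. Classes were clusters made without the 8 genes and named "-like" from fixed markers. Among the clusters, the progenitor-like one (Pi16) showed 7 of 7 markers, the lining-like one (Prg4) 6 of 6, the Saa3-like one 6 of 6 and the osteoblast-like one (Ibsp) 7 of 7. The tenocyte-like class (Fmod) was made of a pair of clusters with 7 and 8 of 8 markers, but the first, led by Angptl7 and Clu, held 3 erythroid and 2 tenocyte markers among its 10 leading genes.

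Positions are those of GENCODE M21 on GRCm38, and all 8 are protein-coding genes. Csf1 lies at chr3:107741048-107760469 on the minus strand and Il34 at chr8:110741829-110805924 on the minus strand. Csf2 lies at chr11:54247271-54249667 on the minus strand and Csf3 on the same chromosome at chr11:98701263-98703629 on the plus strand. Csf2ra lies at chr19:61223957-61228429 on the minus strand. Csf2rb lies at chr15:78325752-78353847 on the plus strand, beside its paralog Csf2rb2 at chr15:78282507-78305721 on the minus strand. Csf3r lies at chr4:126024550-126044440 on the plus strand.

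The upstream sequences of Csf1, the ligand with the most UMIs in the stroma, and of Csf2ra, the receptor chain with the most UMIs in fibroblasts, are shown here. Each is the 250 bases before the RefSeq transcription start on GRCm38.p6, from chr3:107760470-107760719 and chr19:61228419-61228668, both on the minus strand. Capitals mark the motif matches. Of the 8 genes, 4 matched the RefSeq promoter table.
Csf1: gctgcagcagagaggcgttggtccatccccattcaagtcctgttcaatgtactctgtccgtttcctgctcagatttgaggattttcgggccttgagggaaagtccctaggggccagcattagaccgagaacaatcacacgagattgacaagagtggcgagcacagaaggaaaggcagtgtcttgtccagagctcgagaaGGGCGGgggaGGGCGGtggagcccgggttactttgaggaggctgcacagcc
Csf2ra: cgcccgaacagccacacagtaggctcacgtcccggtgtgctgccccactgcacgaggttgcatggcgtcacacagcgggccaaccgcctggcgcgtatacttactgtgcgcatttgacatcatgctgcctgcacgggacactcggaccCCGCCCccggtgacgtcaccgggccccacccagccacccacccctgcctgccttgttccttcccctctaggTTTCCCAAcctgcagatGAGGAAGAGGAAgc

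A GC box (GGGCGG) stood at 51 to 46 and again at 41 to 36 bases before the Csf1 start. In the Csf2ra window, a GC box on the other strand stood at 102 to 97 bases and a C/EBP-type match (TTNNGNAA) on the other strand at 31 to 24 bases before the start. A pair of adjoining PU.1-type matches (GAGGAA) stood at 14 to 9 and 8 to 3 bases. Searched on both strands of 32851 promoters of the same length, GGGCGG was found in 32.7%, GAGGAA in 23.3% and TTNNGNAA in 36.8%. TATAAA (12.4%), TGANTCA, the AP-1 motif (6.7%) and the CK-1 motif (0.2%) had no match in either window. The 11 bases of the Csf2ra window nearest the RefSeq start lie within the GENCODE gene given above, and they hold the second PU.1-type match and part of the first. A match is a description of the letters and not a binding site.

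Csf1 was read in most stromal cells on both days, and it was lower in fibroblasts as a whole at day 5. Fibroblasts held 170.9 CPM at day 5 (15000 UMIs in 8260 cells) and 210.3 CPM at day 0 (11553 UMIs in 5306 cells), a ratio of 0.813 (0.793 to 0.833). The direction was not shared by all stromal classes: progenitor-like fibroblasts were higher at day 5, tenocyte-like cells were about level, and osteoblast-like cells had the lowest ratio. A Csf1 UMI was found in 67.1% of fibroblasts at day 5 (66.0 to 68.1%) and 73.2% at day 0 (72.0 to 74.4%). With every cell thinned to 2000 UMIs, the shares were 27.2% at day 5 (of 8174 fibroblasts with that depth) and 31.5% at day 0 (of 5268). In blood endothelial-like cells, which have little Csf1, the unthinned shares were 17.2% at day 5 and 15.2% at day 0, at median depths of 9296 UMIs at day 5 and 6764 at day 0, beside 9407 UMIs at day 5 and 9930 at day 0 in fibroblasts.

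Progenitor-like fibroblasts, the Pi16 class thought to supply other fibroblasts, had the highest Csf1 level of all stromal classes of at least 50 cells on both days. They had 300.0 CPM at day 5 (287 to 313, 702 cells) and 253.7 CPM at day 0 (244 to 264, 968 cells), a ratio of 1.18 (1.12 to 1.25). Their share of the library's Csf1 UMIs was 12.1% at day 5 (11.7 to 12.6%) and 18.9% at day 0 (18.3 to 19.6%), while they were 6.94% of cells at day 5 and 14% at day 0. A higher level in the class thus went with a smaller part of the total. Other fibroblasts, the clusters that fitted no named class, had 167 CPM at day 5 and 202 CPM at day 0, a ratio of 0.825 (0.801 to 0.850). One of these clusters, led by S100g and Myoc, had 291 CPM at day 0 (278 to 304), above the progenitor-like class. Lining-like fibroblasts, which make the lubricin layer of the joint, had 137 CPM at day 5 and 168 CPM at day 0, a ratio of 0.811 (0.702 to 0.935).

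Saa3-like fibroblasts, led by Saa3, Ptx3 and Lcn2, were 1084 cells at day 5 and 13 at day 0. At day 5 they had 173 CPM of Csf1, an interval (167 to 180) that overlapped those of other fibroblasts and tenocyte-like cells. Without that class, fibroblasts had 170.3 CPM at day 5 and 210.0 CPM at day 0, a ratio of 0.811 (0.790 to 0.832). The lower fibroblast level at day 5 was therefore as large without the Saa3-like class. A pair of smaller classes of day 5, Slpi Timp1 fibroblasts (279 cells) and cycling fibroblasts (172 cells), had 87.0 and 87.9 CPM. They had 2 and 8 cells at day 0, so they too were nearly confined to day 5, and they stayed in that ratio. The ratio was 0.875 (0.850 to 0.900) when the 4 clusters led by other cells' markers, both of these classes among them, were left out as well. Both are clusters with other cell types' markers and no fibroblast marker among their 10 leading genes: 4 erythroid and 2 neutrophil markers in the Slpi Timp1 class, and 1 of lymphatic endothelium beside 3 of the cell cycle in the cycling class. Haemoglobin and other erythroid markers were summed at 2541 CPM in the Slpi Timp1 class and leukocyte markers at 32.9 CPM, and their part in its level was not tested.

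Tenocyte-like cells had 164 CPM at day 5 and 170 CPM at day 0, a ratio of 0.966 (0.899 to 1.04). By cluster, the one led by Angptl7 and Clu had a ratio of 0.974 (0.895 to 1.06) and the one led by Coch and Fmod 1.16 (0.993 to 1.35), so no direction is given for the class. Since erythroid markers outnumbered tenocyte markers among the leading genes of the Angptl7 Clu cluster (618 cells at day 5 and 635 at day 0), values of the class stand beside those of its clusters. The erythroid markers of the class summed to 1120 CPM at day 5 (6 of 6 detected) and 12.6 CPM at day 0 (4 of 6), and the part of this in the ratio was not tested. Osteoblast-like cells, the bone-forming class, had 72.9 CPM at day 5 (364 UMIs in 566 cells) and 119 CPM at day 0 (566 UMIs in 538 cells), a ratio of 0.614 (0.537 to 0.702). A Csf1 UMI was found in 32.2% of osteoblast-like cells at day 5 and 48.5% at day 0, and after thinning in 8.90% at day 5 and 18.7% at day 0. Leukocyte markers in them summed to 3.21 CPM at day 5 and 2.73 CPM at day 0. Neutrophil markers summed to 43.5 CPM at day 5 (217 UMIs, 5 of 8 detected) and 2.52 CPM at day 0 (12 UMIs, 4 of 8 detected), and their part in the ratio was not tested. Blood endothelial-like cells had 27.4 CPM at day 5 and 33.8 CPM at day 0, a ratio of 0.81 (0.433 to 1.51) that the counts did not set apart from 1.

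In order of level at day 5, progenitor-like fibroblasts came first, then the Saa3-like class, other fibroblasts and tenocyte-like cells, whose intervals overlapped from one to the next. Lining-like fibroblasts followed, then cycling, Slpi Timp1 and osteoblast-like cells with overlapping intervals, and endothelial-like cells came last. At day 0 the order was progenitor-like, other fibroblasts, then tenocyte-like and lining-like cells with overlapping intervals, osteoblast-like cells, and chondrocyte-like (46.5 CPM) with endothelial-like cells.

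**Figure D1:**
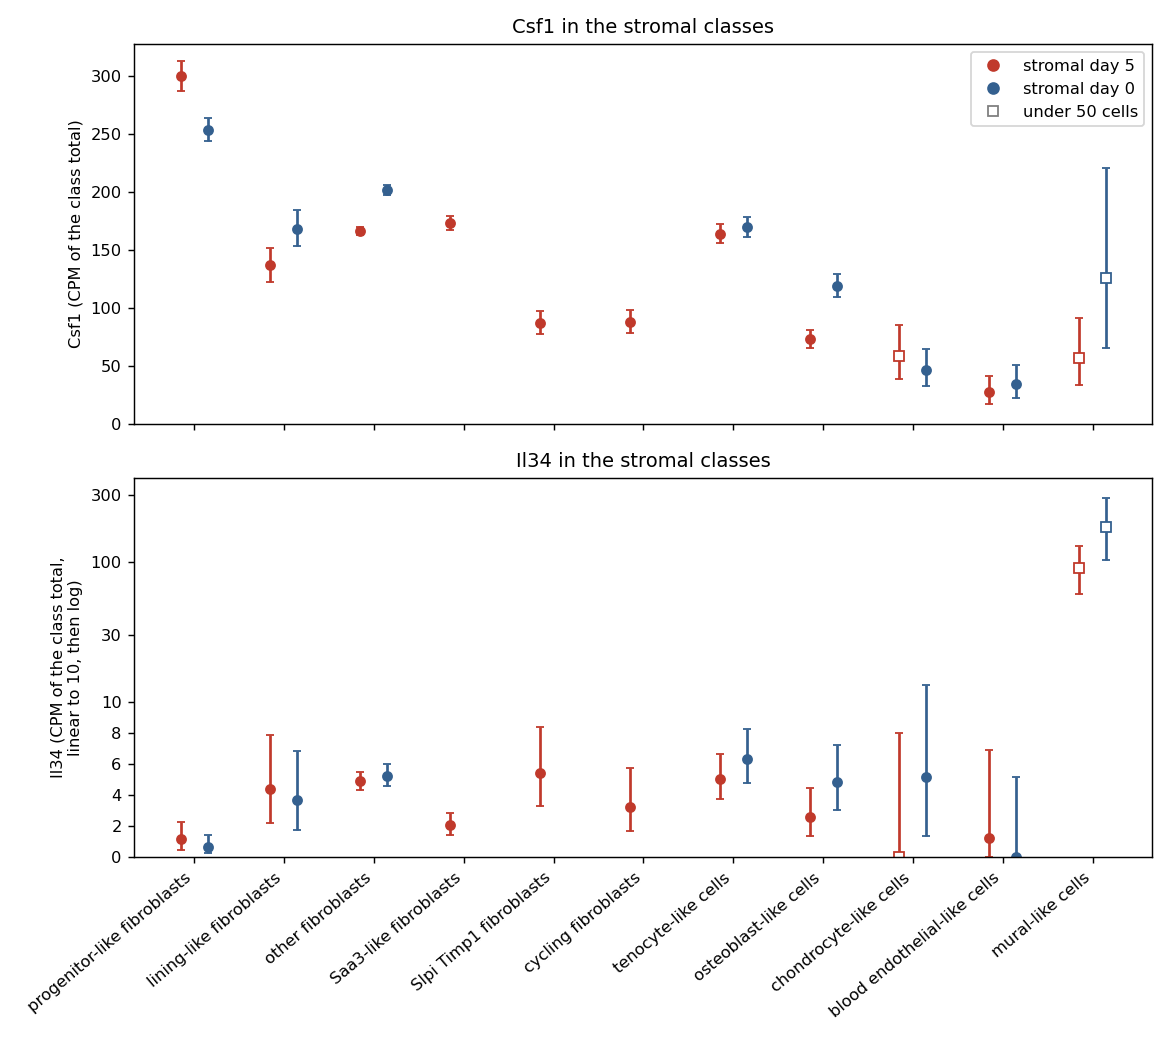
Csf1 and Il34 in CPM (vertical axes; Il34 linear up to 10 and logarithmic above) in each stromal class, day 5 left of day 0, with 95% Poisson intervals; open squares mark classes under 50 cells. Among classes of at least 50 cells, Csf1 peaked in progenitor-like fibroblasts (300.0 CPM on day 5, 253.7 CPM on day 0), and Il34 was highest in mural-like cells, a class under 50 cells (90.2 CPM on day 5, 179 CPM on day 0).

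The fibroblast clusters varied among themselves. Of 13 with at least 50 cells in both libraries, 10 were lower in Csf1 at day 5, 7 of them with an interval below 1, and 2 had an interval above 1. The ratios ran from 0.733 to 1.32, with a median of 0.867. Besides the progenitor-like cluster, the other with an interval above 1 was led by H19, Megf6 and Edil3, with 66.7 CPM at day 5 and 50.5 CPM at day 0, a ratio of 1.32 (1.08 to 1.61). One led by F3, Ifitm1 and C2 had a ratio of 1.17 (0.980 to 1.40). The cluster led by S100g and Myoc, which stood above the progenitor-like one at day 0, had 252 CPM at day 5 and 291 CPM at day 0. Of the lowest ratios, 0.735 belonged to a cluster led by Atf3 and Sbno2, with 162 CPM at day 5 and 221 CPM at day 0. In 4 fibroblast clusters the leading genes held more markers of other cell types than of fibroblasts, so the values by cluster stand beside those of the class, and without these 4 the fibroblast ratio was 0.859. With equal weight to each cluster it was 0.904. Both of these alternatives were chosen after seeing the data.

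**Figure D2:**
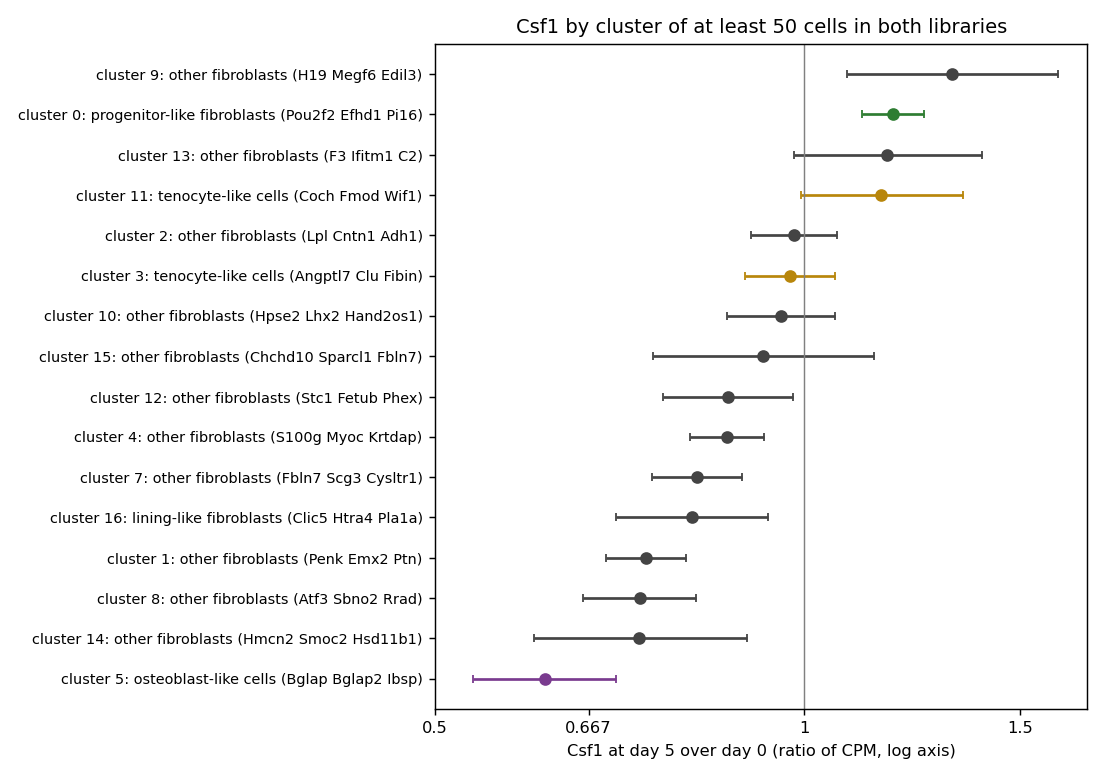
Ratio of Csf1 CPM at day 5 over day 0 (horizontal log axis) for each cluster of at least 50 cells in both stromal libraries, with 95% counting intervals. Fibroblast clusters ran from 0.733 to 1.32, and the osteoblast-like cluster stood below them at 0.614.

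Il34 was read at far fewer UMIs, and the difference between days was within the counting error in fibroblasts as a whole. They had 4.01 CPM at day 5 (352 UMIs) and 4.41 CPM at day 0 (242 UMIs), a ratio of 0.910 (0.771 to 1.08), and without the Saa3-like class the ratio was 1.01 (0.855 to 1.2). Of the 13 fibroblast clusters above, 4 were lower in Il34 at day 5, but not all of them had a ratio. The F3 Ifitm1 C2 cluster had 0 Il34 UMIs on both days. One led by Lpl and Cntn1 had 4 at day 5 and 0 at day 0. The S100g Myoc cluster had 3.44 CPM at day 5 (19 UMIs) and 7.40 CPM at day 0 (47 UMIs), the one ratio with an interval below 1. The Atf3 Sbno2 cluster had 4.19 CPM at day 5 (13 UMIs) and 1.37 CPM at day 0 (7 UMIs), the one with an interval above 1. Tenocyte-like cells had 5.04 CPM at day 5 and 6.36 CPM at day 0, a ratio of 0.792 (0.528 to 1.19), and by cluster the ratios were 0.690 (0.394 to 1.18) for Angptl7 Clu and 0.807 (0.412 to 1.64) for Coch Fmod. Osteoblast-like cells had 2.60 CPM at day 5 (13 UMIs) and 4.83 CPM at day 0 (23 UMIs), a ratio of 0.540 (0.251 to 1.11).

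The spread of Il34 over the stroma differed from that of Csf1. Progenitor-like fibroblasts, highest for Csf1, had 1.16 CPM at day 5 (8 UMIs) and 0.687 CPM at day 0 (7 UMIs), below the interval of other fibroblasts on both days (4.32 to 5.52 CPM at day 5 and 4.57 to 5.99 CPM at day 0). Saa3-like cells had 2.06 CPM at day 5. Mural-like cells, the pericytes and muscle cells around vessels, had the highest level: 90.2 CPM at day 5 (59.4 to 131, 27 UMIs in 12 of 19 cells) and 179 CPM at day 0 (104 to 286, 17 UMIs in 8 of 15 cells). These few cells held 6.11% of the library's Il34 UMIs at day 5 and 4.97% at day 0. They were under the minimum of 50 cells, so no ratio between days is given for them. In them all 8 mural markers were detected on both days.

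Csf3 was read almost only at day 5, and in few cells. The stromal library held 270 Csf3 UMIs at day 5 and 1 at day 0. In fibroblasts there were 167 UMIs in 23 cells at day 5 and 1 UMI at day 0, a ratio of 105 (18.5 to 4152). A mean over single cells' CPM, which weighs each cell alike, put the ratio at 36.1. Without the Saa3-like class the ratio was 18.5 (3.01 to 759), from 24 UMIs at day 5 and 1 at day 0. Of these 24 UMIs, 22 lay in 4 cycling fibroblasts, 14 of them in 1 cell, and that class had 8 cells at day 0. Other fibroblasts held 2 UMIs at day 5 and 1 at day 0. The intervals do not allow for UMIs that come from the same cell, so no least fold is given for fibroblasts with or without the Saa3-like class.

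The Saa3-like class held 143 Csf3 UMIs in 17 of 1084 cells at day 5 (median depth 13770 UMIs). One cell had 53 of them and another 31. Both were low in Saa3, the acute-phase gene after which the class is named: the cell with 53 Csf3 UMIs had 1 Saa3 UMI, beside 67 UMIs of Ptx3, 42 of Il6 and 134 of the neutrophil-attracting chemokine Cxcl1. The cell with 31 had 0 Saa3 UMIs, 50 of Ptx3 and 85 of Cxcl1. Cells with 12, 11, 7 and 5 Csf3 UMIs had 934, 17, 659 and 635 Saa3 UMIs. Cycling fibroblasts held 22 UMIs in 4 of 172 cells, and other fibroblasts held 2 UMIs in 2 of 5861 cells. No Csf3 UMI was found in 702 progenitor-like cells or in 1103 tenocyte-like cells of day 5, which allows shares of up to 0.427% and 0.272% of cells with a UMI at median depths of 9544 and 8202 UMIs.

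Blood endothelial-like cells held Csf3 too, and osteoblast-like cells held 1 UMI in 1 of 566 cells at day 5. The endothelial-like class had 102 UMIs in 6 of 58 cells at day 5 and 0 UMIs in 92 cells at day 0. Against the floor of 3 counts this was 30.1-fold higher, and the exact interval of the ratio began at 24. Neither value allows for UMIs that come from the same cell, so no least fold is given for the class. A single cell had 86 of the 102 UMIs. That cell also had 25 UMIs of Pecam1 and 27 of Cdh5, which mark endothelium, 22 of Il6 and 34 of Cxcl1, and 0 leukocyte-marker UMIs. Over the class, leukocyte markers were summed at 58.5 CPM at day 5 (6 of 6 detected) and 9.85 CPM at day 0 (1 of 6 detected), and their part in the result was not tested.

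**Figure D3:**
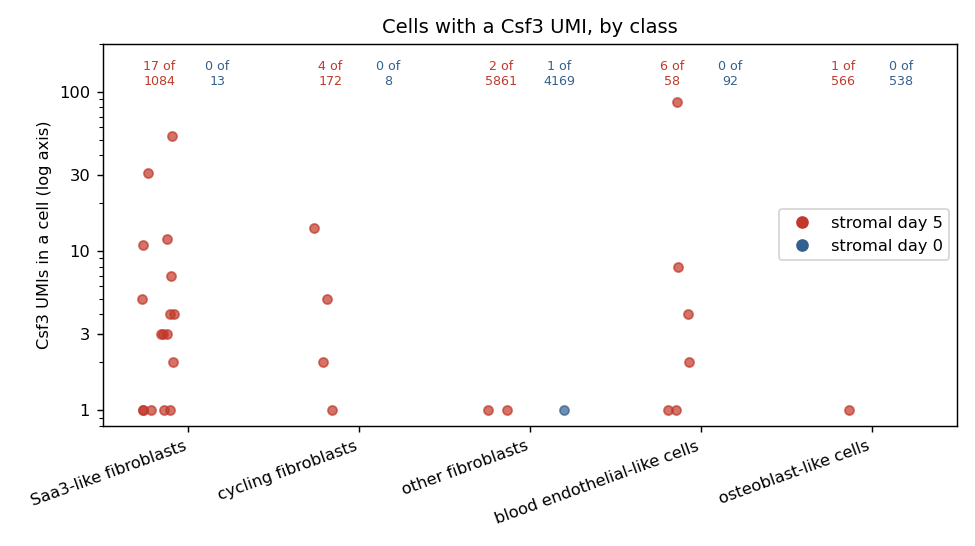
Csf3 UMIs (vertical log axis) in each cell that had any, by class. Each point is 1 cell, and most had under 10 UMIs, while single cells reached 86 in the endothelial-like class and 53 in the Saa3-like class at day 5.

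Csf2, which encodes GM-CSF, was found in 1 cell. It was a Slpi Timp1 fibroblast of day 5 with 8 Csf2 UMIs among its 21192 UMIs, 473 UMIs of the fibroblast markers, 61 of Cxcl1, 57 of Saa3 and 0 of the leukocyte markers. None was found in 6912 stromal cells of day 0 or in 5574 cells of the myeloid library, which allows shares of cells with a UMI of up to 0.0434% and 0.0538%.

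The receptor chains in the stroma were low, with Csf2ra the most read. In fibroblasts, Csf2ra had 6.49 CPM at day 5 (570 UMIs) and 5.06 CPM at day 0 (278 UMIs), a ratio of 1.28 (1.11 to 1.49). Progenitor-like fibroblasts had 7.38 CPM at day 5 (51 UMIs) and 3.83 CPM at day 0 (39 UMIs), a ratio of 1.93 (1.25 to 3.01). Tenocyte-like cells had 2.67 CPM at day 5 and 4.05 CPM at day 0, a ratio of 0.661 (0.382 to 1.13), which the counts did not set apart from 1, and neither did they by cluster (0.827 for Angptl7 Clu and 0.466 for Coch Fmod).

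Csf2rb, the shared beta chain, was an endothelial gene in the stroma. Blood endothelial-like cells had 90.8 CPM at day 5 (71.2 to 114, 73 UMIs in 29 of 58 cells) and 74.6 CPM at day 0 (55.8 to 97.5, 53 UMIs in 34 of 92 cells), a ratio of 1.22 (0.843 to 1.77). They had 1 UMI of Csf2ra at day 5 and 0 at day 0, and no Csf1r or Csf3r UMI on either day. Fibroblasts had 22 Csf2rb UMIs in 8 of 8260 cells at day 5 and 2 UMIs in 2 of 5306 cells at day 0, a ratio of 6.88 (1.69 to 60.4).

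Csf1r in fibroblasts had 28 UMIs at day 5 and 9 at day 0, a ratio of 1.95 (0.893 to 4.69), and Csf3r had 10 UMIs at day 5 and 1 at day 0. Leukocyte markers moved the same way, with 3.11 CPM at day 5 (273 UMIs, 6 of 6 detected) and 0.546 CPM at day 0 (30 UMIs, 4 of 6 detected). A Slpi Timp1 cell held 7 of the Csf2rb and 4 of the Csf3r UMIs, with 77 leukocyte-marker UMIs and 1 fibroblast-marker UMI among 3131. A Saa3-like cell held 6 of the Csf2rb UMIs, with 0 leukocyte-marker and 441 fibroblast-marker UMIs among 19975. Of the other Csf3r UMIs of day 5, 3 lay in a cell with 52 leukocyte-marker and 541 fibroblast-marker UMIs and 2 in a cell with 42 and 1, so that 9 of the 10 lay in 3 cells with leukocyte-marker UMIs. The part of leukocyte RNA in the receptor values was not tested.

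The members past 1.5-fold were counted in each stromal class beside the share of all genes past it, and with 2 to 6 members counted in a class such a comparison says little. In fibroblasts 6 of the 8 had at least 20 UMIs over both days. Of these, 3 were at least 1.5-fold higher at day 5 (Csf3, Csf1r and Csf2rb), where 10.6% of 15476 genes were, and 0 were lower, where 7.65% were. Without the Saa3-like class, 2 of 5 were higher (Csf3 and Csf1r; 10.9% of genes) and 0 lower (6.35%). In progenitor-like fibroblasts 1 of 2 was higher (Csf2ra; 8.35%) and 0 lower (7.16%), and in lining-like fibroblasts 1 of 3 was higher (Csf2ra; 8.49%) and 0 lower (7.30%). In other fibroblasts 0 of 4 were higher (9.36%) or lower (6.79%). In tenocyte-like cells 0 of 3 were higher (10.1%) and 1 lower (Csf2ra; 8.71%), and in osteoblast-like cells 0 of 3 were higher (7.80%) and 2 lower (Csf1 and Il34; 5.55%). In endothelial-like cells 1 of 3 was higher (Csf3; 19.5%) and 0 lower (22.4%). The osteoblast-like class was the one where both ligands of Csf1r were past the fold, though the interval of Il34 included 1.

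Genes near these in the pathways were counted in fibroblasts from 7 lists, where 10.6% of all genes were at least 1.5-fold higher at day 5 and 7.65% lower. Of 7 related cytokines, 3 were at least 1.5-fold higher at day 5 and 1 was lower, with a median log2 ratio of -0.07, against 0.01 over all genes. Lif had 8.34 CPM at day 5 and 2.64 CPM at day 0, a ratio of 3.16 (2.64 to 3.80), and Il11 had 3.47 CPM at day 5 and 1.11 CPM at day 0. Il6 had 64.5 CPM at day 5 and 41.2 CPM at day 0, but without the Saa3-like class it was lower at day 5, with 34.3 CPM at day 5 and 41.2 CPM at day 0, a ratio of 0.832 (0.785 to 0.881). Lif and Il11 were higher without that class too, at ratios of 1.83 (1.51 to 2.24) and 3.13 (2.35 to 4.21). Tslp, a cytokine that acts on dendritic cells, had 2.55 CPM at day 5 and 4.48 CPM at day 0.

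Inducers of colony-stimulating factor genes, which hold interleukin-1 and Toll-like receptors, NF-kB and AP-1 genes, had 5 of 23 higher at day 5 and 0 lower, with a median log2 ratio of 0.33. Fosl1, an AP-1 subunit, had 3.54 CPM at day 5 and 1.06 CPM at day 0, and Tlr2, a receptor for bacterial lipoproteins, had 20.9 CPM at day 5 and 10.9 CPM at day 0. Traf6, an adaptor of both receptor families, had 9.00 CPM at day 5 and 12.5 CPM at day 0. Without the Saa3-like class the count was 1 of 23, Fosl1, where 10.9% of all genes were higher, and the median was 0.22. Of 10 factors that shorten or lengthen the life of these mRNAs, 0 were higher and 0 lower, at a median of 0.06. Among them Zfp36, which binds AU-rich mRNA ends, had 997 CPM at day 5 and 784 CPM at day 0. The RNase gene Zc3h12a had 18.9 CPM at day 5 and 13.9 CPM at day 0, and Arid5a, which protects Il6 mRNA, had 23.6 CPM at day 5 and 29.8 CPM at day 0.

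Of 9 related receptors, 2 were higher at day 5 and 0 lower, at a median of 0.39. Il3ra, the IL-3 receptor alpha chain, had 40.1 CPM at day 5 and 25.3 CPM at day 0, and Csf2rb2 had 32 UMIs at day 5 and 12 at day 0. Without the Saa3-like class 2 of the 9 were higher too, at a median of 0.16, but Csf2rb2 then had the lowest ratio of them. Of 19 signalling genes, 2 were higher and 0 lower at a median of 0.08, a share near that of all genes. They were Tyrobp, a leukocyte adaptor, with 83 UMIs at day 5 and 5 at day 0, and Plcg2, with 24 UMIs at day 5 and 9 at day 0. The leukocyte markers had 273 UMIs at day 5 and 30 at day 0 in the same cells, and their part in these values was not tested. Of 13 receptor feedback and target genes, 0 were higher and 1 lower, Ccnd1, the cell-cycle gene cyclin D1, with 20.2 CPM at day 5 and 32 CPM at day 0, and the median was 0.10. Of 9 transcription factors of the receptor genes, 1 was higher (Irf8) and 1 lower (Irf4), at a median of 0.25. Without the Saa3-like class 0 of the 9 were higher and 1 was lower, at a median of 0.22.

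In the myeloid library, Csf1r (chr18:61100598-61132149, plus strand), the receptor of CSF-1 and IL-34, was highest in lining and interstitial macrophages. Lining macrophage-like cells had 1655 CPM (1604 to 1708, 3948 UMIs in 410 cells), against 518 CPM in the other cells, a ratio of 3.19 (3.09 to 3.30). Interstitial macrophage-like cells had 1488 CPM (1414 to 1565, 196 cells), against 551 CPM in the other cells, a ratio of 2.70 (2.56 to 2.84). Infiltrating macrophage-like cells, the largest macrophage class at 858 cells, had 388 CPM, against 589 CPM in the other cells, a ratio of 0.658 (0.630 to 0.687). The 6 macrophage classes together had 759 CPM (12002 UMIs), against 489 CPM in the other cells, a ratio of 1.55 (1.52 to 1.59), so that the spread among macrophages was wider than their difference from the rest. The other cells included Il1b Thbs1 and interferon response cells, with all 9 macrophage markers detected and summed at 5696 and 10745 CPM. In infiltrating macrophage-like cells these markers summed to 6297 CPM. The ratio is therefore not one of macrophages over cells without macrophage markers.

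Between those ends, the Ms4a7 Apoe macrophage-like class had 823 CPM and late osteoclast-like cells had 756 CPM. Il1b Thbs1 cells (647 CPM), early osteoclast-like cells (624 CPM) and Retnla Tppp3 macrophage-like cells (592 CPM) had intervals that overlapped from one to the next. So had monocyte-like cells (523 CPM), interferon response cells (477 CPM) and Hmox1 Gdf3 macrophage-like cells (473 CPM). Conventional dendritic-like cells had 267 CPM and migratory ones 102 CPM. T cell-like cells, which should lack the receptor, had 227 CPM (median depth 8544 UMIs), while NK-like cells had 22 CPM (3 UMIs in 2 of 45 cells, median depth 2531 UMIs). Macrophage markers summed to 2483 CPM in T cell-like cells and 514 CPM in NK-like cells, and their part in the Csf1r levels there was not tested.

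Csf2ra, the chain that binds GM-CSF alone, ran nearly the other way among macrophages. Mgl2 Cd209d cells, a group of 70 cells named by its leading genes, had 401 CPM, and Il1b Thbs1 cells had 342 CPM, a ratio of 2.08 (1.95 to 2.21) over the other cells. Monocyte-like cells had 292 CPM and infiltrating macrophage-like cells 274 CPM, ratios of 1.72 (1.59 to 1.86) and 1.67 (1.58 to 1.76). Lining macrophage-like cells had 115 CPM, against 178 CPM in the other cells, a ratio of 0.647 (0.572 to 0.730). Early osteoclast-like cells had 106 CPM, against 192 CPM, a ratio of 0.549 (0.515 to 0.585).

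Csf2rb separated the same classes further. Monocyte-like cells had 422 CPM, against 167 CPM in the other cells, a ratio of 2.53 (2.37 to 2.69). Conventional dendritic-like cells had 361 CPM, and so had Il1b Thbs1 cells, at ratios of 2.17 (2.05 to 2.31) and 2.16 (2.04 to 2.30). Lining macrophage-like cells had 32.3 CPM, against 185 CPM in the other cells, a ratio of 0.174 (0.137 to 0.218), and interstitial macrophage-like cells had 53.4 CPM, a ratio of 0.295 (0.222 to 0.386). The classes with the most Csf1r thus had the least Csf2rb among the named macrophage classes. The top level was in 26 basophil-like cells, with 1221 CPM (115 UMIs in 24 cells). Csf2rb2, an IL-3 receptor chain of the mouse, is a near copy. How reads that fit both genes were counted was not checked, so the level of either could be affected. Csf2rb2 too was highest in basophil-like cells (350 CPM), then in conventional (95.4 CPM) and migratory (86.6 CPM) dendritic-like cells.

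Csf3r, the G-CSF receptor, had its highest level in neutrophil-like cells, a class under 50 cells, though the sort removed Ly6G+ cells. It was not confined to them. The 31 neutrophil-like cells had 1078 CPM (908 to 1271, 141 UMIs in 27 cells). Monocyte-like cells had 88.5 CPM, against 18 CPM in the other cells, a ratio of 4.92 (4.22 to 5.70), and Il1b Thbs1 cells had 66.3 CPM, a ratio of 3.62 (3.11 to 4.2). Ms4a7 Apoe macrophage-like cells had 50.4 CPM, a ratio of 2.54 (2.10 to 3.06). Lining macrophage-like cells had 9.22 CPM, a ratio of 0.423 (0.264 to 0.644), and early osteoclast-like cells had 0.670 CPM (7 UMIs in 412 cells), a ratio of 0.0256 (0.0103 to 0.0530).

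**Figure D4:**
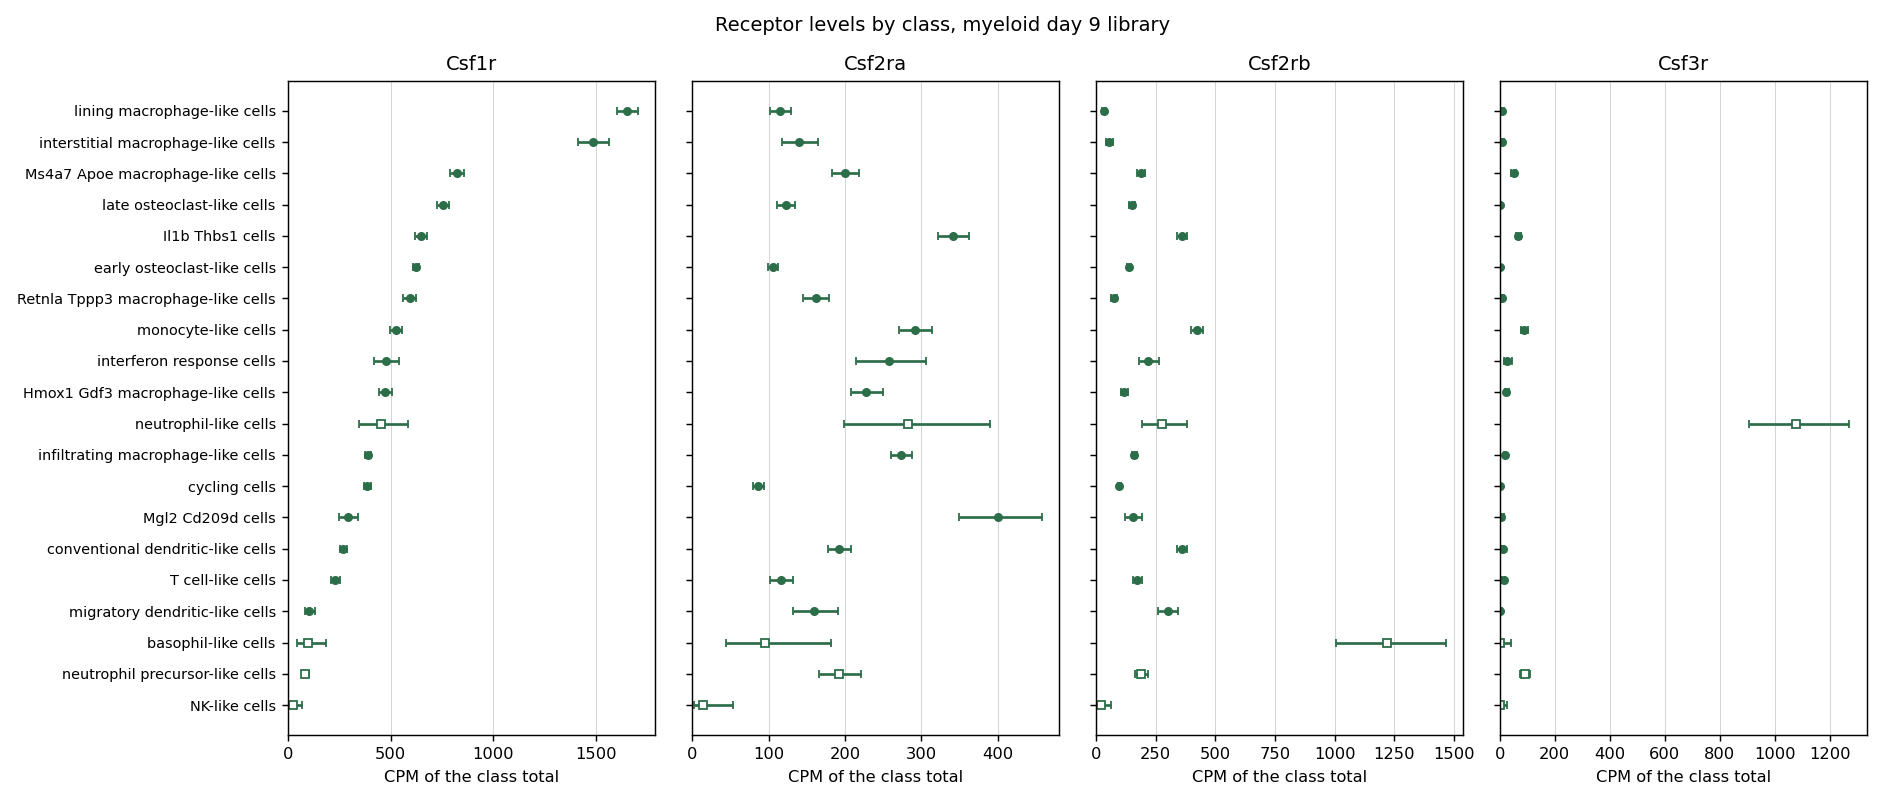
The 4 receptor genes by class of the myeloid library at day 9, in CPM of the class total with 95% Poisson intervals; open squares mark classes under 50 cells. Csf1r was highest in lining macrophage-like cells at 1655 CPM, Csf2rb in basophil-like cells at 1221 CPM and Csf3r in neutrophil-like cells at 1078 CPM.

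Of the 8 genes, 7 had at least 20 UMIs in the myeloid library. In lining macrophage-like cells 1 was at least 1.5-fold higher than in the other cells (Csf1r; 23.2% of 13370 genes were) and 5 were lower (24.8%). In interstitial macrophage-like cells 1 was higher (Csf1r; 24.9%) and 3 lower (18.9%), and in infiltrating ones 2 were higher (Csf1 and Csf2ra; 8.76%) and 2 lower (Il34 and Csf1r; 31.5%). In Ms4a7 Apoe macrophage-like cells 1 was higher (Csf3r; 12.8%) and 3 lower (23.6%). In monocyte-like cells 4 were higher (Csf3, Csf2ra, Csf2rb and Csf3r; 13.2%) and 2 lower (36.7%), and in Il1b Thbs1 cells the same 4 were higher (11.8%) and 1 lower (37.1%). In conventional dendritic-like cells 1 was higher (Csf2rb; 14.6%) and 4 lower (32.1%). In early osteoclast-like cells 1 was higher (Il34; 15.3%) and 4 lower (36.1%), and in late ones 1 was higher (Il34; 15.7%) and 2 lower (33.4%). In all macrophage-like cells 1 was higher (Csf1r; 17.1%) and 3 lower (25.6%). In Il1b Thbs1 and monocyte-like cells the 3 receptor chains for GM-CSF and G-CSF were thus higher together, which is a description, since classes were made from other genes of the same cells.

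The myeloid library held ligand UMIs too. Csf1 was highest in basophil-like cells, with 2473 CPM (2166 to 2812), from 233 UMIs in 20 of 26 cells and at most 45 in 1 cell. These cells were 0.466% of the library and held 29.8% of its 783 Csf1 UMIs (26.6 to 33.1%). They had 0 UMIs of the 7 fibroblast markers and 0 of the fibroblast genes Col1a1, Col1a2, Col3a1 and Dcn. Of the basophil and mast cell markers, 5 of 7 passed the detection rule and all 7 had a UMI in them. Of other classes under 50 cells, neutrophil-like cells held 24 Csf1 UMIs in 31 cells and endothelial-like cells 29 in 32 cells. Fibroblast-like cells held 25 in 23 cells. Unnamed cells with haemoglobin RNA had 42.2 CPM (38 UMIs in 84 cells). Infiltrating macrophage-like cells had 40.2 CPM (226 UMIs in 105 of 858 cells), against 11.5 CPM in the other cells, a ratio of 3.49 (2.98 to 4.08). The same 4 fibroblast genes had 29 UMIs in them, but the list of 7 fibroblast markers had 3919 UMIs and summed to 697 CPM (6 of 7 detected), against 53.1 to 326 CPM in the other 5 macrophage classes. Nearly all of these UMIs thus lay in the remaining markers, Lum, Pdgfra and Pdpn. Pdpn was among the 10 leading genes of this class. The 4 fibroblast genes summed to 5.15 CPM in it, against 3.77 to 23.4 CPM in the other 5 macrophage classes. The part of fibroblast RNA in this Csf1 level was not tested. Lining macrophage-like cells, highest for the receptor, had 3.77 CPM of Csf1, from 9 UMIs.

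Il34 in the myeloid library lay in osteoclast-like and cycling cells. Late osteoclast-like cells had 14.7 CPM (11.1 to 19.2, 54 UMIs in 15 of 129 cells), a ratio of 7.06 (4.99 to 9.89) over the other cells. Early osteoclast-like cells had 5.74 CPM (60 UMIs in 38 of 412 cells), a ratio of 2.53 (1.80 to 3.52), and cycling cells 6.10 CPM (37 UMIs). In the 6 macrophage classes 0 UMIs were found. With the floor of 3 counts put in their place, this was 22-fold lower than in the other cells, which is not the end of an exact interval. Osteoclast markers were summed at 40475 CPM in late, 19008 CPM in early osteoclast-like and 6554 CPM in cycling cells. Median depths were 26137, 23686 and 22445 UMIs in the late, early and cycling classes, against 6394.5 UMIs over the library.

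Csf3 had 34 UMIs in the myeloid library. Monocyte-like cells held 13 in 5 of 422 cells, with 9 in 1 cell, and Il1b Thbs1 cells held 8 in 4 of 483 cells, with 5 in 1 cell. Infiltrating macrophage-like cells held 5 in 5 of 858 cells. T cell-like cells held 3 in 2 of 174 cells, Ms4a7 Apoe macrophage-like cells held 1, and 1 of 31 neutrophil-like cells held 4. A level per class for this gene therefore rested largely on 1 cell in the first 2 of these classes, and wholly on 1 cell in the neutrophil-like class.

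**Figure D5:**
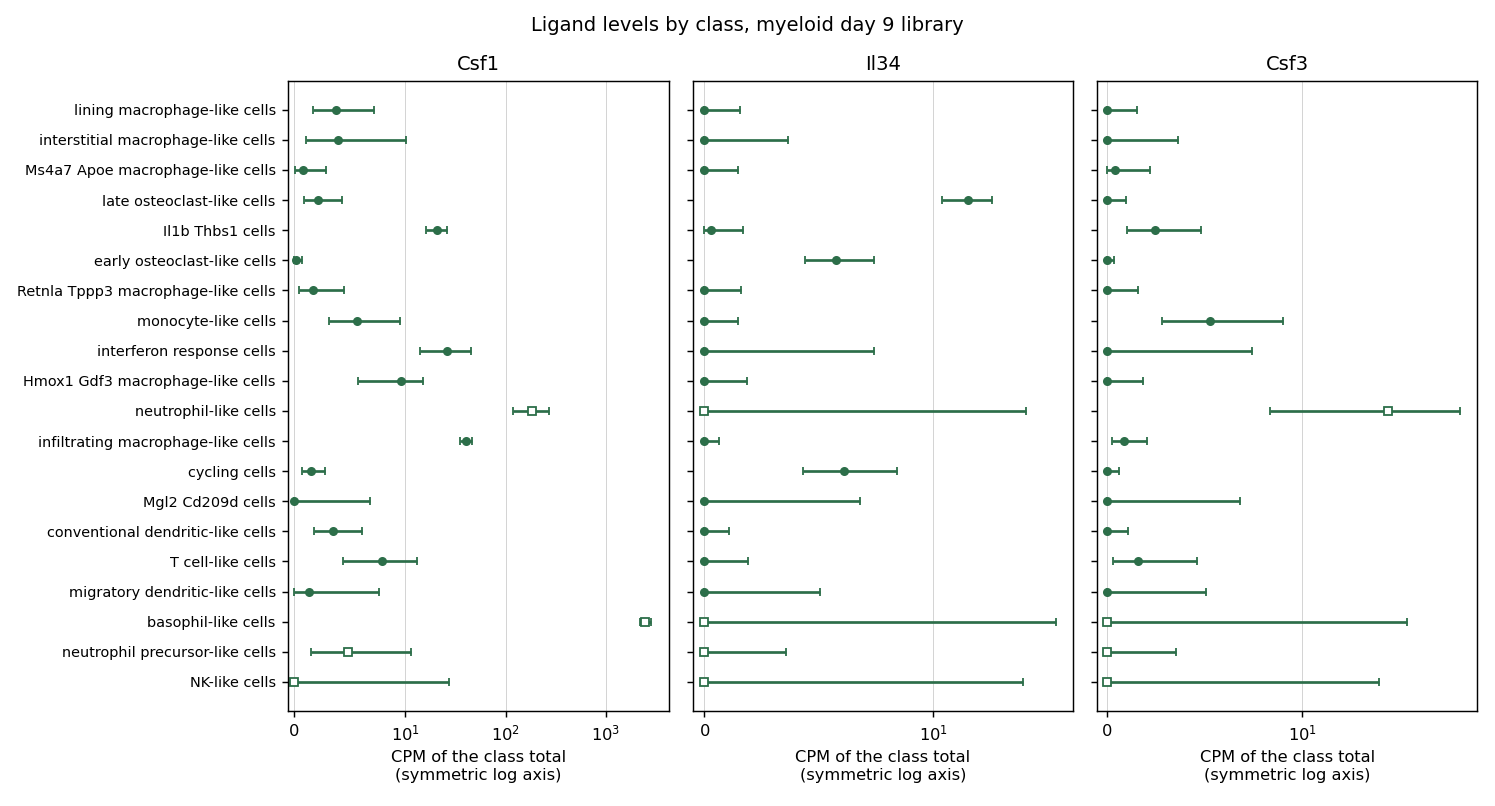
Csf1, Il34 and Csf3 by class of the myeloid library at day 9, in CPM of the class total on a symmetric log axis with 95% Poisson intervals; open squares mark classes under 50 cells. Csf1 stood highest in basophil-like cells at 2473 CPM and Il34 in late osteoclast-like cells at 14.7 CPM.

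Pathway genes in the myeloid classes were counted in the same way, each class against the other cells. Of 21 receptor signalling genes, 10 were at least 1.5-fold higher and 2 lower in monocyte-like cells, at a median log2 ratio of 0.53, against -0.26 over all genes, of which 13.2% were higher and 36.7% lower. Pik3cd, a leukocyte PI3-kinase subunit, had 128 CPM, against 48.3 CPM in the other cells, and the Src-family kinase Lyn had 502 CPM, against 192 CPM. This was not particular to monocyte-like cells. In conventional dendritic-like cells 10 of the 21 were higher and 1 lower, at a median of 0.57, against -0.21 over all genes (14.6% higher and 32.1% lower). In early osteoclast-like cells 0 of the 21 were higher and 13 lower, at a median of -0.89, against -0.20 over all genes (15.3% higher and 36.1% lower), and Jak2, the kinase of the GM-CSF receptor, had 5.07 CPM, against 67.7 CPM in the other cells.

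Of 15 feedback and target genes, 9 were higher and 3 lower in infiltrating macrophage-like cells, at a median of 0.81, against -0.24 over all genes (8.76% higher and 31.5% lower). Egr2, an early response transcription factor, had 91.7 CPM, against 30.3 CPM in the other cells, and the phosphatase gene Dusp1 had 2913 CPM, against 1061 CPM. In lining macrophage-like cells 2 of the 15 were higher and 10 lower, at a median of -0.94, against 0 over all genes (23.2% higher and 24.8% lower). Dok2, an adaptor that restrains receptor kinases, had 120 CPM in them, against 48.0 CPM in the other cells, and Pim1, a kinase gene that STAT5 induces, had 132 CPM, against 762 CPM. In Il1b Thbs1 cells 7 were higher and 3 lower, at a median of 0.46, against -0.29 over all genes (11.8% higher and 37.1% lower), with Egr2 at 134 CPM, against 30.4 CPM, and Pim1 at 2169 CPM, against 642 CPM.

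Of 12 transcription factors of the receptor genes, 6 were higher and 3 lower in lining macrophage-like cells, at a median of 0.66, beside the shares of all genes just given for that class. Maf had 1449 CPM in them, against 144 CPM in the other cells, and Cebpa had 167 CPM, against 52.4 CPM. Interstitial macrophage-like cells also had 6 higher and 3 lower, at a median of 0.48, where 24.9% of all genes were higher and 18.9% lower. In early osteoclast-like cells 1 was higher, the osteoclast factor Mitf with 170 CPM, against 67.2 CPM in the other cells, and 10 were lower, at a median of -3.27, where 36.1% of all genes were lower. Spi1, which encodes PU.1, had 562 CPM in these cells, against 418 CPM. Of 9 related receptors, 5 were higher and 1 lower in conventional dendritic-like cells, at a median of 0.86, against -0.21 over all genes (14.6% higher and 32.1% lower). Among them was Flt3, the receptor that dendritic cells depend on, with 168 CPM, against 8.68 CPM in the other cells.

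The genes whose levels followed those of the members most closely were found over 34 class sums of at least 50 cells, stromal and myeloid together, by Pearson's r of log2(CPM + 10) among 6947 genes. They are a description: the sums share 3 libraries, and a contrast between stroma and myeloid cells alone gives high values. Csf1 was closest to Gsn (0.948), Islr (0.926), Serping1 (0.926), Prrx1 (0.924) and Arhgap42 (0.924), and Csf1r to Cd68 (0.988), Rbm47 (0.986), Btk (0.984), Nckap1l (0.983) and Cyth4 (0.981). Csf3r was closest to Cyp4f18 (0.951), Sirpb1c (0.941), Nrg1 (0.936), Chil3 (0.930) and Apoc2 (0.929). Il34, low in every class of that size, was closest to Slc39a13 (0.838), Adcy3, Myo1d, Plekhf1 and Clybl.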

How the data were processed

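Single cells were profiled with the 10x 3' v3.1 chemistry, which tags molecules near the mRNA end, so no level is per length. The authors deposited whole-number UMI counts per gene and barcode. Per the file headers these came from Cell Ranger 6.0.1, and per the labels the reads were aligned to an mm10 reference. The submitters' processing notes name Seurat 4.3.0 too. Its part in these counts is not given in the sources used here.

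Cells with at least 500 genes and 1000 UMIs and at most 10% mitochondrial UMIs were kept. Scrublet's own threshold called 0, 2 and 0 doublets in stromal day 5, stromal day 0 and myeloid day 9, so it did not work here, and the cells with the top scores were removed at 0.8% per 1000 barcodes (1064, 456 and 371 cells). Clustering used scanpy 1.11.5 and leidenalg 0.10.2 on 2000 variable genes without the 8 members, 30 components, 15 neighbours and a resolution of 1.0. A marker counted as detected at 20 CPM and in 10% of cells of a cluster. For lists of other cells' markers, 1 UMI sufficed. Clusters without a fitting marker list were named by leading genes, after seeing them.

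UMIs were summed per class and library. Ratios needed 50 cells on each side, counts past 1.5-fold needed 20 UMIs over both sides, and the floor was 3 counts. With 1 library per group there is no test across samples. All 8 members are named. From each of 7 lists the 2 highest and the lowest ratio were named in general, and other list genes printed were chosen after their values were seen. Members and lists were chosen with earlier results of these data known. The ratio and interval code was tested on simulated counts. Python 3.11.15, numpy 2.4.6, scipy 1.17.1 and pandas 2.3.3 were used. edgeR 4.0.16 (TMM) and DESeq2 1.42.0 (size factors) gave alternative scalings. Other alternatives were looser and stricter cell filters, no doublet removal, other resolutions, thinning, mean cell CPM, and, chosen after seeing the data, dropping some clusters and equal cluster weights.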

Additional observations from a re-analysis of the deposited data

Results flagged for a closer look

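The Csf1 ratio of day 5 over day 0 was 1.18 in progenitor-like fibroblasts and 0.614 in osteoblast-like cells. The directions were opposite, and the difference between the classes was not tested.

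Outside the stromal libraries where the ligands were compared, Csf1 stood at 2473 CPM in basophil-like cells, Il34 at 14.7 CPM in late osteoclast-like cells and Csf3 at 5.28 CPM in monocyte-like cells, each above the level that a count of 3 allows. Outside the myeloid library where the receptors were compared, Csf2rb stood at 90.8 CPM in blood endothelial-like cells of day 5. These classes held 26, 129, 422 and 58 cells, and 9 of the 13 Csf3 UMIs came from 1 cell.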

How the results depend on the processing

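Of 81 recomputed values for 7 results, 63 moved by less than the counting interval and 18 moved by more. No value whose interval excluded 1 changed direction. Of the results whose interval includes 1, the tenocyte and fibroblast Il34 ratios passed 1 under some alternatives. The fibroblast Csf1 ratio of 0.813 was 0.843 with cells thinned to 2000 UMIs, 0.859 without clusters led by other cells' markers and 0.904 with equal cluster weights (0.838, 0.875 and 0.904 without the Saa3-like class). The tenocyte ratio of 0.966 passed 1 at a resolution of 2.0 (1.05), thinned (1.06), as a mean of cell CPM (1.02) and with equal weights (1.05), so no direction is given for it. The osteoblast ratio was 0.477 thinned and 0.527 as a mean of cell CPM. The Il34 ratio was 1.13 with equal cluster weights, 1.02 thinned, and 0.893 at the lowest. The Csf1r ratio of macrophages over other cells, 1.55, was 1.49 with looser and 1.65 with stricter cell filters, 1.5 at a resolution of 2.0, 1.76 thinned, 1.76 as a mean of cell CPM and 2.05 with equal weights. The Csf3 ratio ran from 36.1 to 105 over 11 alternatives. It has no thinned value, since no Csf3 UMI of day 0 was left. No paired analysis was possible because each group was 1 library, and for the same reason no replicate could be left out. The cause of these shifts was not tested. At this depth the Il34 ratio of osteoblast-like cells (13 and 23 UMIs) was not set apart from 1.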
